A study of Mus musculus with 15 samples.

Results

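C2C12 myotubes exposed for 24 h to 500 µg/mL of Jakyak-gamcho-tang (JGT) were compared with myotubes given vehicle, 3 RNA sequencing libraries against 3, out of 15 libraries in the series. The 6 libraries were chosen by their labelled treatment, and all 14461 genes with enough counts were tested, out of 42807 symbols in the authors' table. The C2C12 line consists of mouse myoblasts, which leave the cell cycle and fuse into multinucleated myotubes on differentiation, here for 6 days. JGT is prepared by boiling peony root together with licorice root in water, and 500 µg/mL was the dose at which viability was calculated to be 80%. The tested libraries carried JGT at 500 µg/mL. The vehicle libraries carried 0.1% DMSO, the level that the described stock (10 mg/mL in PBS with 2% DMSO) gives at 500 µg/mL. JGT at 100 and 20 µg/mL and non-treated myotubes, 3 libraries each, were used as further points of comparison. No genetic change was labelled in any group. The series asks about muscle wasting, but no wasting agent is named for these libraries, so the comparison is of otherwise untreated myotubes with and without the extract at this dose. Genes of the antioxidant (NRF2) response, the dioxin receptor (AhR) battery, the cell cycle and the extracellular matrix were set aside as 4 lists with 323 genes, and 55 other lists with 1902 genes were described.

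Myotubes in culture are held in shape by actin, microtubules and adhesion proteins, and they share the dish with undifferentiated single cells called reserve cells. The actin cytoskeleton also feeds back on transcription: free actin monomers hold back the cofactor of serum response factor (SRF), which binds a short element named the CArG box in the promoters of actin and actin-binding genes. Bone morphogenetic proteins (BMPs), activins and their secreted antagonists set whether muscle cells grow or differentiate, and excitation of the mature fibre depends on ion channels, calcium pumps and the neuromuscular junction. These families come first in what follows, and metabolism, stress, translation and transcription come after them.

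Totals ran from 27846132 to 33988034 expected counts in the JGT 500 libraries and from 26012844 to 29685983 in the vehicle libraries. JGT 500 replicate 2 stood apart from its group: it lay at 17.5 on the first principal component, where replicates 1 and 3 lay at 37.2 and 39.4 and vehicle between −15.6 and −11.5. Mitochondrially encoded genes took 4.94% of its counts, against 4.27% and 3.47% in JGT 500 replicates 1 and 3 and 4.74% to 4.94% in vehicle. The 14 tested myotube markers summed to between 22270 and 24300 CPM (counts scaled to a common library size) at JGT 500 and to between 21900 and 22730 CPM in vehicle, so the labelled cell type was borne out in all 6 libraries. Markers of reserve cells and myoblasts summed to 2083 to 2354 CPM at JGT 500 and 2192 to 2264 CPM in vehicle. The cell cycle list, set aside here, summed to 1751 to 1787 CPM at JGT 500 and 2985 to 3079 CPM in vehicle. Markers of endothelial cells, leukocytes and adipocytes stayed under 6 CPM in sum in every library, with Emcn, Adgre1 and Adipoq at 0. Osteoblast and chondrocyte markers summed to 45.1 to 49.6 CPM at JGT 500 and 57.4 to 58.1 CPM in vehicle, with Ibsp and Acan at 0. Fewer cells of a type and less RNA per cell cannot be told apart in such bulk libraries. The titles of all 15 libraries carry the same batch label, Batch1. All 9 JGT libraries nevertheless carry sample codes of another series than the 6 control libraries, so that JGT exposure and code series cannot be told apart in the comparison with vehicle, whereas JGT 500 and JGT 100 share theirs but may differ in DMSO. Whether replicate libraries came from independent cultures is not labelled, and the p-values therefore rest on a spread between libraries that may be technical.

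At 500 µg/mL a wide range of genes differed from vehicle, mostly by modest amounts. Called genes, those with a Benjamini-Hochberg adjusted p below 0.05 in edgeR's quasi-likelihood test, numbered 4815: 2387 were higher at JGT 500 (16.5% of those tested) and 2428 lower (16.8%), or 33.3% in both directions. Of these, 126 were higher and 265 lower by at least 1 on the log2 scale, 0.871% and 1.83% of genes tested. In each of the 6 fits that left out 1 of the compared libraries, 1365 of the higher and 1619 of the lower genes were called again. They make up 9.44% and 11.2% of genes tested, and such a call is described as held. Without JGT 500 replicate 2 the count was 6323. The median log2 fold change of all genes was 0.01. In 5801 genes (40.1% of those tested) the 3 JGT 500 libraries did not overlap the 3 vehicle libraries. Between JGT 500 and JGT 100, 2853 genes were called (19.7%): 1309 genes were higher (9.05%) and 1544 lower (10.7%) at JGT 500, or 1748 and 1238 when libraries were scaled by their totals alone. JGT 100 differed from vehicle in 623 genes (4.31%), 302 higher (2.09%) and 321 lower (2.22%) at JGT 100. JGT 20 differed from vehicle in 47 genes (0.325%), 25 higher (0.173%) and 22 lower (0.152%) at JGT 20.

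Outside the 4 set-aside lists, and among genes with a mean of at least 5 CPM, those that rose furthest included enzymes, secreted signals and signal antagonists. Xdh, which degrades purines to uric acid, had 36.0, 32.4 and 32.0 CPM in the JGT 500 libraries, against 6.96, 7.91 and 7.15 CPM in vehicle. Adh7, an alcohol dehydrogenase that also oxidises retinol, had 29.6, 27.2 and 29.6 CPM at JGT 500, against 8.38, 8.79 and 9.30 CPM in vehicle. Il1rn, the secreted antagonist of interleukin 1, had 25.8, 22.4 and 20.5 CPM at JGT 500, against 7.17, 7.25 and 7.52 CPM in vehicle. The rule that ranked these genes also required that the 3 JGT 500 libraries did not overlap the 3 vehicle libraries. Their log2 fold changes were 2.19 ± 0.0688 for Xdh, 1.71 ± 0.0650 for Adh7 and 1.65 ± 0.0873 for Il1rn (SE), and the edgeR adjusted p was 1.11e-11 for Il1rn and smaller for the other two. Mal, a proteolipid of membrane rafts, rose by 2.12 on the log2 scale, the iodide transporter gene Slc5a5 by 1.75, and Csf2rb, the shared beta chain of cytokine receptors, by 1.68. Csf2rb has a near-identical neighbour, Csf2rb2, so its count is uncertain. Igfbp4, which binds insulin-like growth factors, had 132, 114 and 130 CPM at JGT 500, against 44.4, 44.0 and 41.3 CPM in vehicle (log2 1.53). Pi15, a secreted peptidase inhibitor, had 91.6, 88.3 and 83.6 CPM at JGT 500, against 31.1, 30.7 and 29.6 CPM in vehicle (1.53). By that rule both genes were higher in every JGT 500 library than in any vehicle library. The remaining genes of this rank were Grem1, Inhbb, Gdf5 and Chrdl1 among the growth factor signals, Lpl, which frees fatty acids from lipoproteins, the transporter gene Slc16a11 (log2 1.51) and Thbd, thrombomodulin, a receptor that restrains clotting (1.32).

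The genes that fell furthest by the same rule had other roles. Sox8, a transcription factor, had 6.47, 8.41 and 5.04 CPM at JGT 500, against 21.6, 20.9 and 22.3 CPM in vehicle. Ache, the acetylcholinesterase that ends transmission at the neuromuscular junction, had 2.77, 2.40 and 3.21 CPM at JGT 500, against 9.26, 8.68 and 8.90 CPM in vehicle. Pdgfb, a platelet-derived growth factor chain, had 16.8, 15.7 and 18.3 CPM at JGT 500, against 39.0, 38.9 and 40.1 CPM in vehicle. By that rule no JGT 500 library reached the lowest vehicle library in any of the 3. The log2 fold changes were −1.69 ± 0.121 for Sox8, −1.69 ± 0.103 for Ache and −1.22 ± 0.0633 for Pdgfb (SE), with an edgeR adjusted p of at most 1.62e-08. Myot, a protein of the sarcomeric Z disc, had 10.7, 9.93 and 9.45 CPM at JGT 500, against 23.1, 23.8 and 22.8 CPM in vehicle (log2 −1.21). Mest, an imprinted gene of the hydrolase fold, had 12, 11.6 and 12.1 CPM at JGT 500, against 30.5, 28.7 and 27.5 CPM in vehicle (−1.28). Cdhr1 (−1.5), Smoc2 (−1.46), Fam198b (−1.36) and the sodium pump subunit gene Atp1b2 (−1.31) fell too. Further genes of this rank were Kntc1 (−1.36), Asf1b (−1.32), Prr11 (−1.25), Chaf1b (−1.22) and Tcf19 (−1.21). Of these, Kntc1 acts in the mitotic checkpoint, and Asf1b and Chaf1b load histones onto new DNA. They are division genes that the set-aside cell cycle list did not hold.

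**Figure D1:**
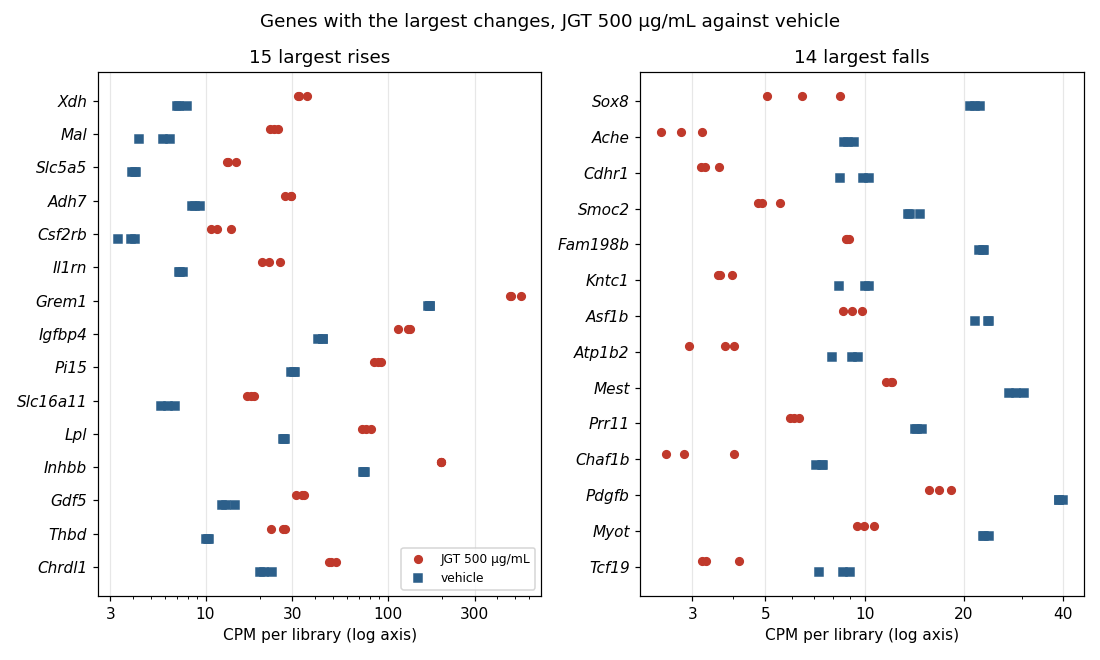
CPM of each library on a log axis for the 15 genes with the largest rise (left) and the 14 with the largest fall (right), among called genes outside the set-aside lists with a mean of at least 5 CPM. Circles are JGT 500 libraries, drawn above the squares of the vehicle libraries. By the rule that chose them the groups do not overlap, as in Inhbb, at 196 to 197 CPM against 73.5 to 75.0 CPM.

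The genes that took the most counts moved in a different way. Of those outside the set-aside lists, the 5 with the largest gain in CPM were mt-Rnr2, Malat1, Des, Tnnt2 and Tnnc1, and the 5 with the largest loss were Actb, Actg1, Lgals1, Vim and Myh3. The mitochondrial ribosomal RNA gene mt-Rnr2 had 3113, 3345 and 3383 CPM at JGT 500, against 2172, 2215 and 2225 CPM in vehicle (log2 0.57, edgeR adjusted p = 8.13e-09). It averaged 3008 CPM at JGT 20 and 3300 CPM at JGT 100, and JGT 500 and JGT 100 differed by −0.01 (adjusted p = 0.924). For this gene most of the difference was present between the lowest dose and vehicle, where the sample codes differ too. Malat1, a nuclear long noncoding RNA, had 2514, 1945 and 2708 CPM at JGT 500, against 1405, 1345 and 1443 CPM in vehicle (log2 0.77). It averaged 1928 CPM at JGT 20 and 2043 CPM at JGT 100, both above vehicle but without a call (edgeR adjusted p = 0.260 and 0.0545). JGT 500 and JGT 100 did not differ by a call either (0.297). Lars2, a mitochondrial leucyl-tRNA synthetase, followed the same order, with 297, 323 and 444 CPM at JGT 500, against 184, 149 and 155 CPM in vehicle, and means of 320 CPM at JGT 20 and 321 CPM at JGT 100. The cardiac and slow troponins Tnnt2 (log2 0.44) and Tnnc1 (0.42) rose, and both were lowest in JGT 500 replicate 2, at 1464 and 1535 CPM. Of the genes that lost most, Vim, the intermediate filament of undifferentiated cells, had 1726, 1726 and 1712 CPM at JGT 500, against 2093, 2274 and 2227 CPM in vehicle. Cyp1a1, a set-aside dioxin receptor gene, was the single gene with a proper symbol that was nearly silent in vehicle and present in every JGT 500 library, with 59, 56 and 40 counts at JGT 500, against 0, 1 and 0 counts in vehicle.

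Among the 55 families, the actin cytoskeleton had the highest share of members that fell. Of 49 tested genes of actin, actin-binding proteins and known SRF targets, 29 fell and 4 rose, that is 59.2% and 8.16% against 16.8% and 16.5% of all genes, and the median log2 fold change was −0.18. All but 1 of the 29 falls held, and 1 of the 4 rises, that of Cfl2. Actb and Actg1, the cytoplasmic actins, both fell. Actb had 1751, 1772 and 1717 CPM at JGT 500, against 2355, 2469 and 2426 CPM in vehicle (log2 −0.47 ± 0.0376, SE, edgeR adjusted p = 5.85e-09). Actg1 had 1133, 1294 and 1149 CPM at JGT 500, against 1705, 1845 and 1832 CPM in vehicle (−0.59 ± 0.0459, adjusted p = 3.54e-09). Myl9, a regulatory light chain of nonmuscle and smooth muscle myosin, had 59.7, 58.8 and 55.1 CPM at JGT 500, against 112, 115 and 114 CPM in vehicle (−0.98 ± 0.0428, 6.17e-13). Each JGT 500 library of these 3 genes lay below each vehicle library. Csrp1, a LIM protein that binds alpha-actinin (−0.89), Tpm4, a cytoskeletal tropomyosin (−0.55), and Fhl1, a LIM protein of muscle (−0.47), completed the members with the smallest p. Against JGT 100, 23 members were lower at JGT 500 and 1 was higher, where 10.7% and 9.05% of all genes were. Myl9 averaged 107 CPM at JGT 20 and 99.9 CPM at JGT 100, and Actb 2235 and 2137 CPM.

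The sequences of 4 promoters of this family that hold a CArG box are shown because their genes fell together and the box is the element that SRF binds. Srf and Myl6, an essential myosin light chain, were chosen for this after their values were seen. Srf itself had 63.3, 61.8 and 67.3 CPM at JGT 500, against 82.1, 80.5 and 82.3 CPM in vehicle (log2 −0.35, edgeR adjusted p = 3.67e-06), and Myl6 fell by 0.36 on the log2 scale. Each line gives 250 bases before to 50 bases after the RefSeq start of the gene (assembly GRCm38.p6), read 5′ to 3′ on the gene's own strand, with the box in capitals. Myl9 lies at chr2:156775214-156775513 (+ strand), Myl6 at chr10:128492960-128493259 (− strand), Actg1 at chr11:120348446-120348745 (− strand) and Srf at chr17:46556113-46556412 (− strand).
Myl9: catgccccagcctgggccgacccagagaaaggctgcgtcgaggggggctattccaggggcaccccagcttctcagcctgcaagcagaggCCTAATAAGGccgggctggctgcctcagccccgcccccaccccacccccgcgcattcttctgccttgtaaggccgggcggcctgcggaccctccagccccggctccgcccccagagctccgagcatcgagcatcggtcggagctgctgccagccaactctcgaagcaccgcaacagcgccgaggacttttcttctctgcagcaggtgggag
Myl6: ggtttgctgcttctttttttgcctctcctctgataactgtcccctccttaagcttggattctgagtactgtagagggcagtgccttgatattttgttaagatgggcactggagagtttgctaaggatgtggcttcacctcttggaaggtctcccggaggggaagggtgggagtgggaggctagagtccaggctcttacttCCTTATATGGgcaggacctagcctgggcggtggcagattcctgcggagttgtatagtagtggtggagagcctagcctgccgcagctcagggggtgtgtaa
Actg1: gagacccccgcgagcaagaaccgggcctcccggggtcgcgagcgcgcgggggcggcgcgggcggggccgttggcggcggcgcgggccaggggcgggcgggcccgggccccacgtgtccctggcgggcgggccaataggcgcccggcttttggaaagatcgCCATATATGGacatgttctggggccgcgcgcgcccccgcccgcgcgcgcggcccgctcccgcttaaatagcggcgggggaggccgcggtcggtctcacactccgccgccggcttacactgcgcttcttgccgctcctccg
Srf: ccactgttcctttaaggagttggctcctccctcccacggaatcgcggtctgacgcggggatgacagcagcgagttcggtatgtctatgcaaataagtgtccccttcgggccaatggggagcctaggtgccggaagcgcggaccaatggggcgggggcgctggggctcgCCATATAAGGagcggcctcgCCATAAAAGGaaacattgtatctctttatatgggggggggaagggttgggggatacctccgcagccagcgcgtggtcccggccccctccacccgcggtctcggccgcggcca
The box begins 161 bases before the start of Myl9, 50 before that of Myl6 and 90 before that of Actg1, and Srf holds 2, at 82 and 62. The search took the CArG box with no mismatch. Its pattern is its own reverse complement, so both strands were covered, though a given box need not read the same on both. Of the 44 tested family genes with a promoter in the table, 8 held one (18.2%), among them 7 of the 26 that fell (26.9%), against 164 of 10139 tested genes (1.62%) and 488 of 27025 genes in the table (1.81%). Since known SRF targets were put on the list by name, a higher share than in other genes is partly how the list was made. Of all tested genes that fell and have a promoter in the table, 2.7% held one. A match describes these letters and does not show that SRF bound there.

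**Figure D2:**
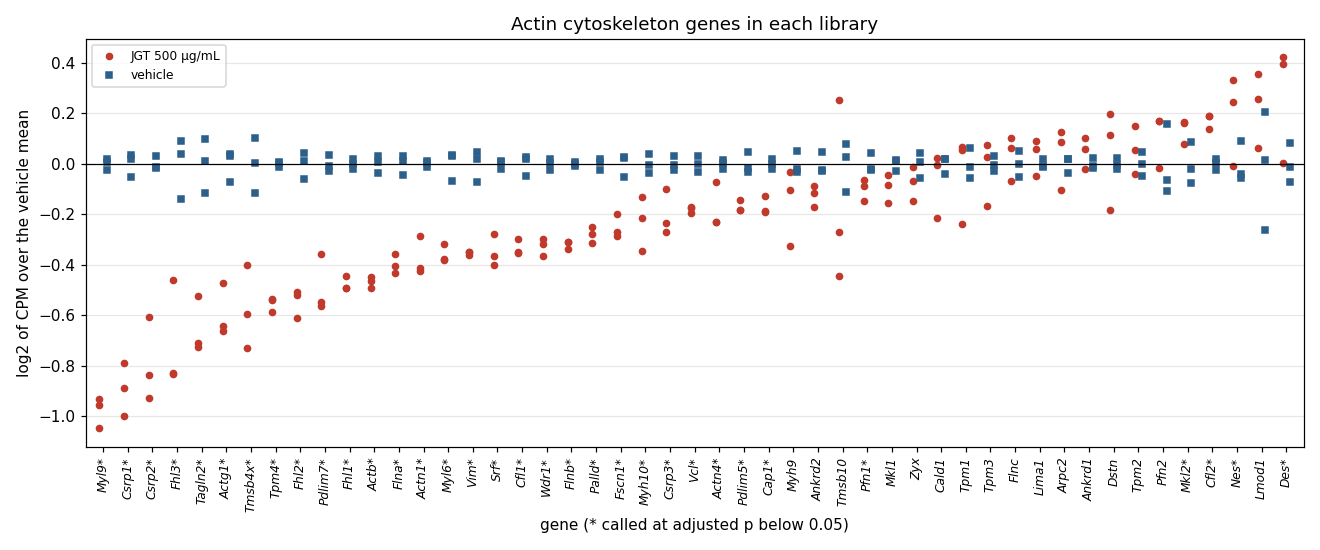
Log2 of each library's CPM over the vehicle mean for the 49 tested genes of the actin cytoskeleton list, ordered by their fold change. Circles are JGT 500 libraries and squares vehicle libraries, an asterisk marks a called gene, and the fall runs from Myl9 at −0.98 upwards through most of the list.

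Microtubule and adhesion genes fell more often than all genes did, but members of each list also rose. Of 30 tested tubulins and microtubule proteins, 10 fell and 5 rose (33.3% and 16.7%). The beta tubulins Tubb5 (log2 −0.44) and Tubb6 (−0.37) and the alpha tubulin Tuba1b (−0.40) fell, and Stmn2 (0.48), a neuronal microtubule destabiliser, and Mapre3 (0.24), a plus-end binding protein, rose with calls that held. Tubulin genes are similar in sequence, so counts could be shared among them. Of 30 integrins and integrin adaptors, 10 fell and 7 rose (33.3% and 23.3%, against 16.8% and 16.5% of all genes). Of these calls 9 and 3 held, and the list had a median log2 fold change of −0.06. Itga11, a collagen receptor chain, had 10.4, 10.9 and 10.8 CPM at JGT 500, against 23.1, 21.3 and 20.7 CPM in vehicle (log2 −1.02). Itga4 (−0.86), a fibronectin and VCAM1 receptor chain, Itga5 (−0.35), another fibronectin receptor chain, and Tln2 (−0.56), the muscle talin that links integrins to actin, fell as well. Without vehicle replicate 1, 4 in place of 7 members of the integrin list rose. Of 34 cadherins and contact proteins, 11 fell, all held, and 5 rose (32.4% and 14.7%). Alcam (−0.36), Cdh6 (−0.67) and Pcdh18 (−0.60) were lower, and the connexin gene Gja5 (0.48), the tight junction scaffold gene Tjp1 (0.21), Cdh1 (0.41) and L1cam (0.22) were higher with calls that held, although Cdh1 stood at 0.16 against non-treated myotubes, without a call (edgeR adjusted p = 0.230). Of 28 targets and partners of YAP, a transcriptional coactivator that responds to cell tension, 10 fell and 4 rose (35.7% and 14.3%). Among them Tead3 (−0.49), Tead1 (−0.37) and the muscle cofactor gene Vgll2 (−0.67) fell, and F3 (0.67), Crim1 (0.40) and Amotl1 (0.16) rose. Of the markers of reserve cells and myoblasts, Vcam1 (−0.53), Cd34 (−0.51) and Pax7 (−0.30) fell, Spry1 (0.47) rose, and Myf5 and Myod1 were at −0.21 and 0.01 without a call. The part of fewer dividing or reserve cells in the lower cytoskeletal and adhesion genes was not tested.

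In the BMP and activin signals, Grem1, Chrdl1, Gdf5 and Inhbb rose, and Rgma and Fst fell. Grem1, a secreted BMP antagonist, had 476, 540 and 469 CPM at JGT 500, against 170, 167 and 170 CPM in vehicle (log2 1.55 ± 0.0485, SE, edgeR adjusted p = 3e-15). Its means were 208 CPM at JGT 20 and 256 CPM at JGT 100, in the order of the doses. Non-treated myotubes averaged 216 CPM, above both vehicle and JGT 20, and JGT 500 exceeded them by 1.20 on the log2 scale. Chrdl1, another BMP antagonist, had 48.7, 51.7 and 47.9 CPM at JGT 500, against 20.0, 20.9 and 23.2 CPM in vehicle (1.21). Gdf5, a BMP-family ligand, had 34.0, 31.4 and 34.9 CPM at JGT 500, against 14.6, 12.9 and 12.3 CPM in vehicle (1.33). The 3 genes belong to the largest rises, which were ranked only where the groups did not overlap. Bmp4, a ligand, was the other riser of the list, by 0.25. Of the list's 30 tested members, 13 fell and 4 rose (43.3% and 13.3%), and 8 of the falls and all 4 rises held. The co-receptor gene Rgma had 51.0, 51.3 and 48.0 CPM at JGT 500, against 69.1, 70.3 and 72.9 CPM in vehicle (−0.50, adjusted p = 1.29e-08). The BMP target genes Id1 (0.10), Id2 (0.04) and Id3 (0.10), given here after their values were seen, were not called. Inhbb, the beta B subunit of activin and inhibin, had 197, 196 and 197 CPM at JGT 500, against 73.5, 74.1 and 75.0 CPM in vehicle (1.41 ± 0.0347, 8.15e-17). Fst, the activin-binding follistatin gene, picked for its role beside Inhbb after the values were seen, had 85.5, 72.7 and 90.9 CPM at JGT 500, against 149, 138 and 142 CPM in vehicle (−0.79, 4.79e-08). The activin subunit and its binding protein thus lay on opposite sides of vehicle in all libraries. In GENCODE M21 (GRCm38), Grem1 spans chr2:113746164-113758646 and Inhbb spans chr1:119415465-119422248, and each is read from the − strand.

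Among growth factors and receptor tyrosine kinases, 18 of 53 tested members fell, 17 of them with calls that held, and 8 rose, 5 of them held (34.0% and 15.1%). Of all genes tested, 16.8% fell and 16.5% rose. Hgf, the growth factor that activates satellite cells, had 26.8, 27.8 and 21.4 CPM at JGT 500, against 13.2, 13.5 and 12.7 CPM in vehicle (log2 0.96). Pdgfra, the receptor of platelet-derived growth factors found on mesenchymal cells, rose by 0.71, while the ligand gene Pdgfb fell by 1.22. Gfra1, a receptor of glial-derived neurotrophic factor (−0.64), and Fgf21, a stress-induced hormone (−0.48), fell. Without vehicle replicate 2, 5 members of this list rose. Of 29 Notch pathway genes, 9 fell, all held, and 4 rose (31% and 13.8%). Dll1, a Notch ligand, had 16.1, 16.2 and 17.9 CPM at JGT 500, against 29.5, 26.9 and 27.2 CPM in vehicle (−0.74). Heyl, a Notch target, had 37.2, 33.2 and 29.6 CPM at JGT 500, against 57.6, 62.5 and 61.9 CPM in vehicle (−0.86). Both were lower in every JGT 500 library, as were the receptor gene Notch1 (−0.38) and the Notch modifier Lfng (−0.65), and Hes6 (0.29), which promotes myogenesis, and Dtx4 (0.13) rose. Of 48 Wnt genes, 14 fell and 5 rose (29.2% and 10.4%), 10 and 2 of them held. Lgr5, the R-spondin receptor, had 1.77, 2.52 and 2.12 CPM at JGT 500, against 5.82, 5.79 and 6.10 CPM in vehicle (−1.46), and Fzd6 (−0.49) and Fzd4 (−0.43), Wnt receptors, and Kremen1 (−0.32) fell, while Nkd2 (0.47), a Wnt inhibitor, and the co-receptor Lrp5 (0.25) rose. Of 14 Hedgehog genes, 7 fell and 2 rose (50% and 14.3%). The co-receptor Cdon (−0.21), the ligand transporter Disp1 (−0.27) and the transducer Smo (−0.24) fell, and Gas1, a co-receptor and growth arrest gene, rose (0.76), with Iqce (0.22). That count of falls was 4 without JGT 500 replicate 3 or without vehicle replicate 2. Of 27 ERK feedback genes, 8 fell and 5 rose (29.6% and 18.5%), with Spry1 (0.47) and Phlda1 (0.43) higher and Spred2 (−0.27) and Dusp7 (−0.26) lower. Of 55 guidance genes, 16 fell and 8 rose (29.1% and 14.5%). Plxna4, a semaphorin receptor, had 1.60, 2.17 and 2.65 CPM at JGT 500, against 5.98, 5.86 and 6.61 CPM in vehicle (−1.53). The receptor kinase Epha1 was higher (0.92).

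**Figure D3:**
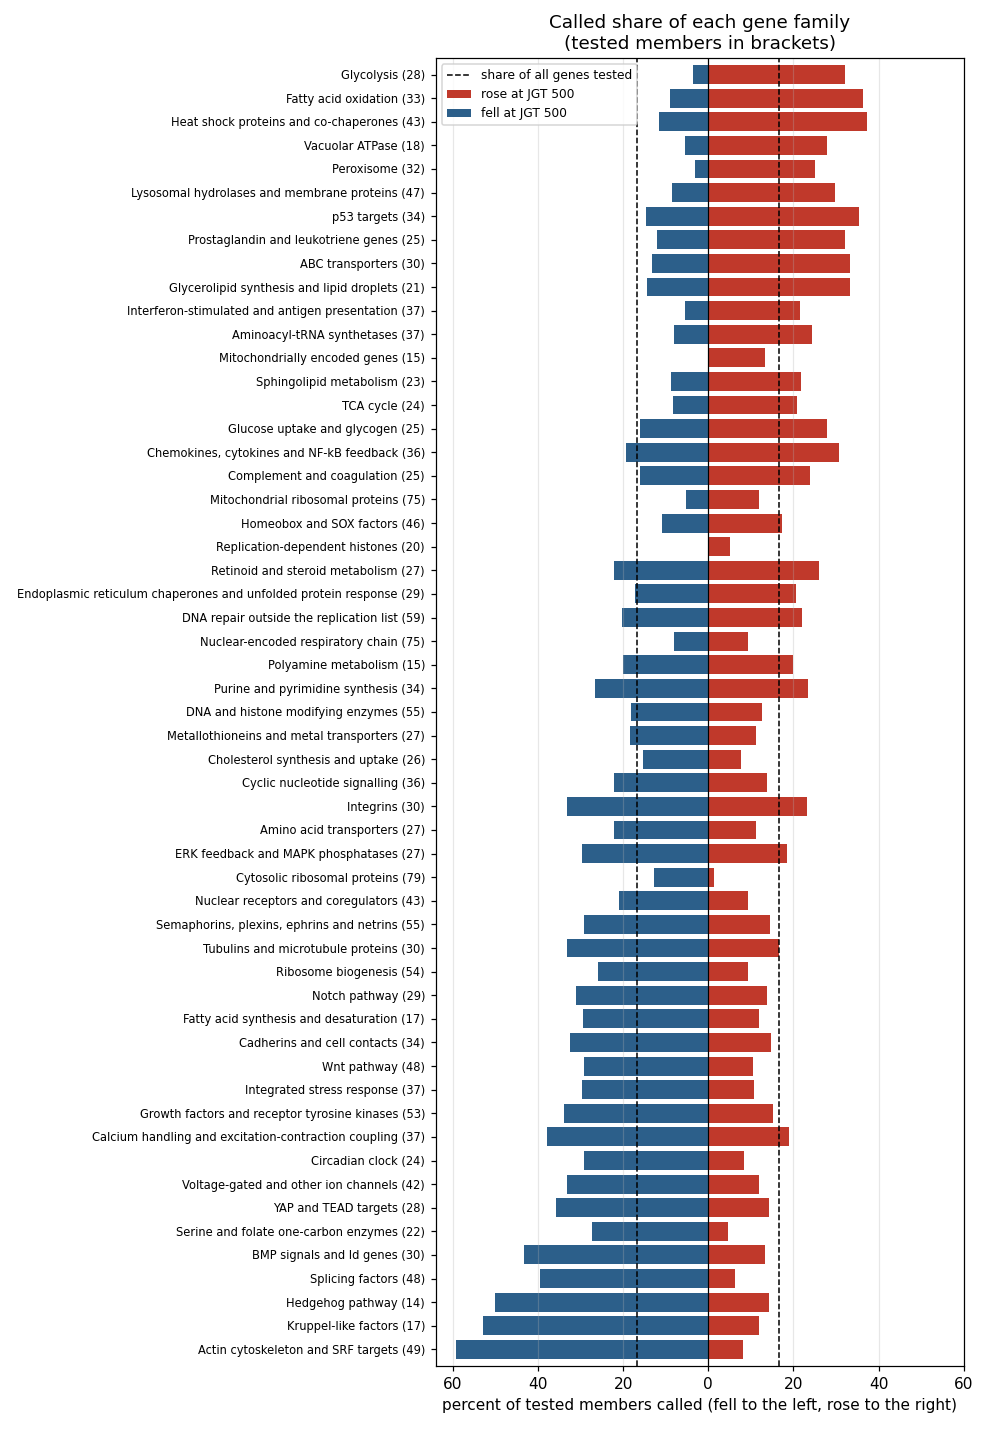
Percent of the tested members of each of the 55 gene families that rose (right) or fell (left) at JGT 500 against vehicle, with the number tested in brackets. Dashed lines mark the share of all genes tested, 16.5% higher and 16.8% lower, and the actin cytoskeleton list, at 59.2% lower, stands at the bottom.

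Among genes of inflammation, clotting and lipid mediators, Cxcl5, Cxcl1 and Ptgfr rose, and Plat and Plau fell. Of 36 tested chemokine, cytokine and NF-kB feedback genes, 11 rose and 7 fell (30.6% and 19.4%). Cxcl5, a neutrophil chemokine, had 3.37, 5.54 and 2.96 CPM at JGT 500, against 0.169, 0.270 and 0.270 CPM in vehicle (log2 4.06 ± 0.356, SE, edgeR adjusted p = 7.28e-08). Cxcl1, a related chemokine, had 1.97, 2.02 and 2.05 CPM at JGT 500, against 0.440, 0.193 and 0.303 CPM in vehicle (2.65 ± 0.277, 2.80e-07). These were low levels in all libraries, and the groups did not overlap. The adhesion molecule Vcam1 had 35.6, 35.8 and 34.2 CPM at JGT 500, against 50.3, 52.5 and 49.6 CPM in vehicle (−0.53), and the macrophage growth factor Csf1 fell by 0.31. Leukocyte markers summed to between 4.02 and 5.68 CPM at JGT 500 and between 4.48 and 5.38 CPM in vehicle, with Adgre1 at 0. Of 37 interferon and antigen presentation genes, 8 rose and 2 fell (21.6% and 5.41%, against 16.5% and 16.8% of all genes). The rises were led by Stat2 (0.30), Tap2 (0.60), H2-T23 (0.45) and Irf1 (0.26). H2 genes have near-identical copies, so their counts are uncertain. Of 25 complement and coagulation genes, 6 rose and 4 fell (24% and 16%), all with calls that held. The clot-promoting tissue factor gene F3 (0.67) and the clot-restraining Thbd (1.32) rose, and both plasminogen activators fell. Plat had 53.6, 57.2 and 54.2 CPM at JGT 500, against 84.8, 89.7 and 88.9 CPM in vehicle (−0.67), and Plau 68.5, 65.6 and 71.8 CPM at JGT 500, against 101, 106 and 102 CPM in vehicle (−0.58). The thrombin receptor F2r (−0.27) and the protease receptor F2rl1 (−1.17) were lower too. Of 25 prostaglandin and leukotriene genes, 8 rose and 3 fell (32% and 12%). Ptgfr, the receptor of prostaglandin F2 alpha, had 7.28, 6.15 and 6.88 CPM at JGT 500, against 2.27, 2.28 and 2.26 CPM in vehicle (1.57 ± 0.141, 2.88e-08). The prostaglandin synthase Ptgs1 (0.49), the leukotriene-forming lipoxygenase Alox5 (0.32) and the prostaglandin E2 receptor Ptger4 (0.43) rose, and Ptgfrn (−0.25) fell. Of 27 retinoid and steroid genes, 7 rose and 6 fell (25.9% and 22.2%), 3 of each with calls that held. Dhrs3, which reduces retinal to retinol, had 31.0, 30.2 and 24.9 CPM at JGT 500, against 14.0, 16.4 and 14.3 CPM in vehicle (0.95). Hsd11b1, which regenerates active glucocorticoid, had 33.9, 36.5 and 32.7 CPM at JGT 500, against 19.6, 22.5 and 21.2 CPM in vehicle (0.71). Stra6, the membrane receptor for retinol uptake, had 0.701, 1.08 and 0.529 CPM at JGT 500, against 2.40, 3.24 and 2.56 CPM in vehicle (−1.79). The enzyme genes Adh7 and Dhrs3 thus rose while the uptake receptor gene Stra6 fell. The counts of this list were 4 rises without vehicle replicate 1 and 3 falls without JGT 500 replicate 1.

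Genes of muscle excitation moved both ways. Of 42 tested ion channel genes, 14 fell and 5 rose (33.3% and 11.9%), and 13 and 4 of these calls held. Kcnc1, a fast delayed rectifier potassium channel, had 4.07, 4.19 and 4.97 CPM at JGT 500, against 9.77, 8.64 and 8.39 CPM in vehicle (log2 −1.02), and the sodium pump subunit Atp1b2 (−1.31) and the mechanically gated Piezo2 (−0.34) fell. Kcnn3, a calcium-activated potassium channel of immature and denervated muscle, had 95.6, 95.7 and 85.7 CPM at JGT 500, against 66.3, 64.1 and 65.5 CPM in vehicle (0.50), and Kcnn1 (0.61), the inward rectifier Kcnj12 (0.41) and the muscle sodium channel Scn4a (0.30) rose too. Each of these channels was shifted in all 3 libraries of JGT 500. Of 37 calcium handling genes, 14 fell and 7 rose (37.8% and 18.9%). Atp2a1, the calcium pump of fast muscle, had 560, 611 and 584 CPM at JGT 500, against 776, 754 and 743 CPM in vehicle (−0.37, edgeR adjusted p = 3.26e-07). Camk2b, a calcium-activated kinase (−0.39), Cacna1s, the voltage sensor of the T tubule (−0.26), and Srl, sarcalumenin (−0.28), fell as well. The falls counted 8 in a fit of the 6 libraries alone and 9 against non-treated myotubes, and without JGT 500 replicate 2, 11 fell and 11 rose. Of 36 cyclic nucleotide genes, 8 fell, all held, and 5 rose (22.2% and 13.9%, against 16.8% and 16.5% of all genes). The phosphodiesterases Pde4b (0.47) and Pde7b (0.69) were higher and Pde7a (−0.34) lower.

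Genes of energy and lipid metabolism moved in both directions, and most in each list were not called. Of 28 tested glycolysis genes, 9 rose and 1 fell (32.1% and 3.57%), and 8 of the rises held. Pfkl, the liver-type phosphofructokinase, had 102, 99.3 and 106 CPM at JGT 500, against 76.6, 76.2 and 79.0 CPM in vehicle (log2 0.41, edgeR adjusted p = 7.8e-07). Pdk1 (0.35), which restrains pyruvate oxidation, hexokinase Hk2 (0.30) and pyruvate kinase Pkm (0.30) rose, and Eno3, the muscle enolase, fell (−0.20). Of 25 glucose uptake and glycogen genes, 7 rose and 4 fell (28% and 16%). The basal glucose transporter Slc2a1 (0.40) and the glycogen branching enzyme Gbe1 (0.49) were higher and Ppp1r3a (−0.49), a glycogen phosphatase subunit, lower. Arrdc3 and Txnip, related arrestin-domain genes, parted: Arrdc3 rose (0.59), and Txnip had 57.9, 50 and 52.0 CPM at JGT 500, against 73.8, 75.6 and 78.5 CPM in vehicle (−0.51), with means of 55.8 CPM at JGT 20 and 53.5 CPM at JGT 100. Of 33 fatty acid oxidation genes, 12 rose and 3 fell (36.4% and 9.09%), and 7 and 2 of them held. Cpt1a, the gate of fatty acids into mitochondria, had 77.6, 72.4 and 72.5 CPM at JGT 500, against 44.2, 46.0 and 45.0 CPM in vehicle (0.72, 5.54e-11). Acsl6 (0.41), which activates fatty acids, and the fatty acid receptor Ppard (0.16) rose, and Fabp5 (−1.09), a fatty acid carrier, and the mitochondrial carrier Ucp2 (−0.36) fell. Of 21 glycerolipid genes, 7 rose and 3 fell (33.3% and 14.3%). Lpl had 81.1, 76.1 and 72.1 CPM at JGT 500, against 27.4, 26.6 and 27.0 CPM in vehicle (1.5, 2.64e-14), and the lipid droplet coat Plin2 (0.46) and the glycerol acyltransferase Gpam (0.35) rose. Mgll, which completes the breakdown of stored fat, had 16.7, 20.9 and 17.0 CPM at JGT 500, against 39.9, 42.3 and 40.6 CPM in vehicle (−1.16), and G0s2 (−0.50), an inhibitor of fat breakdown, and the phosphatidate phosphatase Lpin2 (−0.18) fell. Adipocyte markers summed to 5.41 to 5.69 CPM at JGT 500 and 4.41 to 4.69 CPM in vehicle, with Adipoq, Lep, Cidec and Cfd at 0. Nearly all of this sum was Pparg, whose call did not hold, as Plin1, Retn and Fabp4 had 1, 1 and 9 counts over the 6 libraries. Of 26 cholesterol genes, 2 rose and 4 fell (7.69% and 15.4%, neither above the share of all genes), with Pmvk (0.54) and Ebp (0.25) higher with calls that held. Of 17 genes of fatty acid synthesis, 5 fell and 2 rose (29.4% and 11.8%), and the falls of Fasn (−0.24) and Elovl6 (−0.35) held. Of 24 genes of the TCA cycle, 5 rose and 2 fell (20.8% and 8.33%, against 16.5% and 16.8% of all genes). Pyruvate carboxylase Pcx (0.39) and Ogdh (0.22) were higher and Idh3a (−0.21) lower with calls that held. Without JGT 500 replicate 2, 8 rose and 6 fell, and without JGT 500 replicate 1, 2 rose and 1 fell. Of 23 sphingolipid genes, 5 rose and 2 fell (21.7% and 8.7%), and the rise of the ceramide kinase Cerk (0.20) and the fall of the desaturase Degs1 (−0.23) held.

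Genes of peroxisomes and lysosomes, the organelles of breakdown, moved in both directions. Of 32 peroxisome genes, 8 rose (25%) and 1, the fatty alcohol reductase Far1 (log2 −0.18), fell (3.12%). The oxidase Acox3 (0.37), the sterol carrier gene Scp2 (0.27) and the phytanate hydroxylase Phyh (0.34) rose, and the rises numbered 5 without JGT 500 replicate 1, while 3 fell without JGT 500 replicate 2. Of 47 lysosomal genes, 14 rose and 4 fell (29.8% and 8.51%), and the rises numbered 9 without vehicle replicate 3. The list's counts were 13 rises and 10 falls without JGT 500 replicate 2. Ctsl, a cathepsin, had 601, 624 and 582 CPM at JGT 500, against 447, 485 and 468 CPM in vehicle (0.37, edgeR adjusted p = 1.60e-07). Psap, the precursor of the saposins, had 1420, 1296 and 1491 CPM at JGT 500, against 1104, 1087 and 1052 CPM in vehicle (0.38). The aspartic protease Ctsd (0.27) also rose, whereas Arsb (−0.53), a sulfatase, and Ctsc (−0.66), a dipeptidyl peptidase, fell. Of 18 subunits of the vacuolar proton pump, 5 rose and 1 fell (27.8% and 5.56%). Of the rises 3 held: Atp6v1a (0.15), Atp6v1d (0.20) and Atp6v1c1 (0.17). Of 30 ABC transporters, 10 rose and 4 fell (33.3% and 13.3%), with Abca8b (0.64), Abcb6 (0.40) and Abca7 (0.32) among the rises and Abca8a (−1.04), Abcc9 (−0.65) and Abce1 (−0.24) among the falls that held. Abca8a and Abca8b are adjacent, similar genes. Of 27 metal genes, 5 fell and 3 rose (18.5% and 11.1%, against 16.8% and 16.5% of all genes). The zinc exporter gene Slc30a1 (−0.51) and Mt1 (−0.42), a zinc-binding metallothionein, fell, and the iron exporter Slc40a1 (0.39) and the transferrin receptor Tfrc (0.28) rose.

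Nucleotide, amino acid and polyamine genes were split. Of 34 purine and pyrimidine genes, 8 rose and 9 fell (23.5% and 26.5%, against 16.5% and 16.8% of all genes). Xdh, Ampd3, which deaminates AMP (log2 0.76), and Gda, which deaminates guanine (0.83), rose, and Ampd1, the muscle AMP deaminase, fell (−0.74). Of 22 serine and folate genes, 6 fell and 1 rose (27.3% and 4.55%). Tyms, which makes thymidylate (−0.77), the mitochondrial folate enzyme Aldh1l2 (−0.31) and Mat2a (−0.27), which makes S-adenosylmethionine, fell. Tyms serves DNA synthesis, and the cell cycle list was lower at JGT 500 with it. Of 37 integrated stress response genes, 11 fell and 4 rose (29.7% and 10.8%). Slc7a1, the arginine transporter (−0.50), Aldh18a1, which starts proline synthesis (−0.29), and Fgf21 were lower and Vldlr (0.67) and Ddit4 (0.37) higher. Against JGT 100, 15 members of this list were lower and 2 higher at JGT 500, where 10.7% and 9.05% of all genes were. The list's median log2 fold change against vehicle was 0.08 at JGT 20, 0.12 at JGT 100 and −0.02 at JGT 500. The comparison with JGT 100 thus starts from a median above vehicle, and the medians do not fall in the order of the doses. Of 27 amino acid transporters, 6 fell and 3 rose (22.2% and 11.1%), the falls numbering 3 without vehicle replicate 3. Slc7a5 (−0.22) was lower and Slc1a3 (0.55) and Slc7a2 (0.18) were higher. Of 15 polyamine genes, 3 rose and 3 fell (20% each, near the share of all genes). Srm, spermidine synthase (−0.47), and Azin1 (−0.38) were lower, and Sat1, which starts polyamine breakdown (0.38), and Azin2 (0.32) higher with calls that held.

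Among chaperones, the small heat shock protein gene Hspb7 and the HSP70 partner Hsph1 rose. Of 43 tested heat shock proteins and co-chaperones, 16 rose and 5 fell (37.2% and 11.6%), 10 of the rises held, and 10 rose without JGT 500 replicate 1. Hspb7, a protein of muscle, had 238, 214 and 234 CPM at JGT 500, against 169, 160 and 155 CPM in vehicle (log2 0.50, edgeR adjusted p = 9.66e-09), with means of 192 CPM at JGT 20 and 213 CPM at JGT 100. Hsph1 had 164, 132 and 152 CPM at JGT 500, against 107, 105 and 106 CPM in vehicle (0.49), and Hspb8 (0.35) and Dnajb2 (0.32) rose too. Hspb6 (−0.64) and Dnajb1 (−0.28), a classic target of heat shock factor, fell. Of 29 endoplasmic reticulum genes, 6 rose and 5 fell (20.7% and 17.2%, near the share of all genes), with Fkbp2 (0.42) higher and Xbp1 (−0.24), Edem1 (−0.19), Herpud1 (−0.17) and Syvn1 (−0.14) lower. The rises numbered 10 without JGT 500 replicate 2 and 3 in a fit of the 6 libraries alone. Against non-treated myotubes Fkbp2 stood at 0.16 (adjusted p = 0.136) and Syvn1 at −0.10 (0.0606), neither called by edgeR.

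In translation and mitochondrial genes, the counts of calls changed with single libraries. Of all genes tested, 16.5% rose and 16.8% fell. Of 79 cytosolic ribosomal protein genes, 10 fell and 1 rose (12.7% and 1.27%), but 41 fell and 9 rose without JGT 500 replicate 2, and 4 fell without JGT 500 replicate 1 or 3 or without vehicle replicate 2 or 3. Rpsa (log2 −0.21), Rps16 (−0.21) and Rps19 (−0.24) fell with calls that held. Ribosomal protein genes have many processed copies, so their counts are uncertain. Of 75 nuclear-encoded respiratory chain genes, 7 rose and 6 fell (9.33% and 8%), but 19 rose and 30 fell without JGT 500 replicate 2. Without JGT 500 replicate 1 or 3 or without vehicle replicate 3, 2 rose and 2 fell. Calls that held included Ndufb3 (0.41), which rose, and Cyc1 (−0.20) and Atp5c1 (−0.19), which fell. Of 15 mitochondrially encoded genes, both ribosomal RNAs rose, mt-Rnr1 (0.52) and mt-Rnr2 (0.57), and the 13 protein genes were not called, with a list median of −0.26. Without JGT 500 replicate 2, 8 of the 15 fell. That library stood at 4.94% mitochondrial counts, within the vehicle range, where JGT 500 replicates 1 and 3 lay below it. Of 75 mitochondrial ribosomal proteins, 9 rose and 4 fell (12% and 5.33%), but 10 rose and 20 fell without JGT 500 replicate 2. Of the calls 1 and 2 held, the rise of Mrpl51 (0.24) and the falls of Mrps10 (−0.21) and Mrpl20 (−0.22). The rises numbered 3 to 4 without JGT 500 replicate 1 or 3 or vehicle replicate 1 or 3. Of 54 ribosome biogenesis genes, 14 fell and 5 rose (25.9% and 9.26%), with Polr1b (−0.22), Grwd1 (−0.25) and Utp20 (−0.16) lower and Rrp1 (0.31) higher. Of that list 6 fell without vehicle replicate 2 and 12 rose without JGT 500 replicate 2. Of 37 aminoacyl-tRNA synthetases, 9 rose and 3 fell (24.3% and 8.11%), with Dars (0.20) higher and Iars (−0.25) and Mars2 (−0.33) lower. Without JGT 500 replicate 2, 14 rose and 5 fell. Of 48 splicing factors, 19 fell and 3 rose (39.6% and 6.25%), and 12 of the falls held. Leaving out JGT 500 replicate 2 gave 17 falls and 11 rises. Ptbp1, the repressor of neuronal and muscle exons, had 131, 147 and 119 CPM at JGT 500, against 177, 190 and 174 CPM in vehicle (−0.45, edgeR adjusted p = 1.16e-05). Srsf6 (−0.21), Srsf3 (−0.25) and Hnrnpdl (−0.23) fell, and the splicing kinase Clk1 (0.20) rose.

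Among transcription factors, p53 targets and chromatin genes, Hlf, Gadd45a and Klf10 were among the genes that moved. Of 17 Kruppel-like factors, 9 fell and 2 rose (52.9% and 11.8%), 6 and 1 of them held. Klf10, induced early by TGF-beta, had 80.9, 86.1 and 72.9 CPM at JGT 500, against 112, 112 and 110 CPM in vehicle (log2 −0.48), and Klf16 (−0.42) and Klf7 (−0.31) fell, while Klf5 rose (0.24). Of 24 clock genes, 7 fell and 2 rose (29.2% and 8.33%). Hlf, a clock output factor, had 3.37, 4.04 and 3.10 CPM at JGT 500, against 0.372, 0.501 and 0.337 CPM in vehicle (3.13 ± 0.211, SE, edgeR adjusted p = 4.08e-10). Its mean was 0.563 CPM at JGT 20 and 0.710 CPM at JGT 100, so the large step lay between JGT 500 and JGT 100 (2.30, 1.07e-08). Bhlhe41 (−0.41), Per2 (−0.26) and Ciart (−0.44), repressors of the clock, fell. Of 43 nuclear receptors and coregulators, 9 fell and 4 rose (20.9% and 9.3%, against 16.8% and 16.5% of all genes), and 30 were not called. All 9 falls held, among them Vdr, the vitamin D receptor (−0.41), the early-response receptor Nr4a1 (−0.51) and Ppargc1b, a coactivator of mitochondrial genes (−0.43). Rarg, a retinoic acid receptor (0.21), and Ppard rose. Of 46 homeobox and SOX factors, 8 rose and 5 fell (17.4% and 10.9%, against 16.5% and 16.8% of all genes), with Pbx3 (0.37) and Tshz1 (0.31) higher and Sox8 (−1.69), Msx1 (−0.53), Six4 (−0.25) and Hoxc11 (−0.25) lower. Those rises numbered 4 to 5 without JGT 500 replicate 1 or any 1 vehicle library. Of 34 p53 targets, 12 rose and 5 fell (35.3% and 14.7%), 7 and 3 of them held, and 8 fell without JGT 500 replicate 2. Gadd45a, which arrests damaged cells, had 354, 295 and 351 CPM at JGT 500, against 194, 195 and 191 CPM in vehicle (0.79, 4.04e-09), with means of 226 CPM at JGT 20 and 248 CPM at JGT 100. Trp53inp1 (0.28) and Ddit4 (0.37) rose, and Trp53 itself (−0.27), Gadd45b (−0.52) and Cdkn1c (−0.42) fell. Of 59 DNA repair genes outside the replication list, 13 rose and 12 fell (22% and 20.3%, not far from the share of all genes), and the falls with the smallest p, Lig1 (−0.66), Bard1 (−0.93), Rad54l (−0.92) and H2afx (−0.52), are genes used in dividing cells. The rises numbered 8 without JGT 500 replicate 1 or 3 or vehicle replicate 1. Of 55 chromatin enzymes, 10 fell (18.2%, near the 16.8% of all genes), all held, with Hdac9 (−0.43), the muscle methyltransferase Smyd1 (−0.33) and Kmt2b (−0.20) lower, and 7 rose (12.7%), Ezh1 (0.24) among them. Without JGT 500 replicate 2, 17 fell and 11 rose. Of 20 tested histone genes, which are near copies of each other and uncertain in count, Hist1h1c (0.16) rose and none fell; without JGT 500 replicate 2, 2 rose and 1 fell.

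Across the doses, the plotted genes did not all follow the same course. Means of Grem1, Inhbb, Xdh and Lpl lay in the order vehicle, JGT 20, JGT 100 and JGT 500, with Xdh at 8.68, 12.9 and 33.5 CPM from the lowest to the highest dose. The mean of non-treated myotubes lay above JGT 20 for Grem1 and below it for Inhbb, Xdh and Lpl. JGT 500 exceeded JGT 100 by 0.95 (Grem1), 0.97 (Inhbb), 1.38 (Xdh) and 0.74 (Lpl) on the log2 scale, with an edgeR adjusted p of at most 1.58e-09, a comparison within the JGT sample codes. Ache averaged 10.7 CPM at JGT 20 and 8.69 CPM at JGT 100, near vehicle, and its fall lay between JGT 500 and JGT 100 (−1.64, adjusted p = 3.03e-10). Myl9 (−0.79) and Actb (−0.29) were also lower at JGT 500 than at JGT 100, whereas mt-Rnr2 was not called between these doses.

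**Figure D4:**
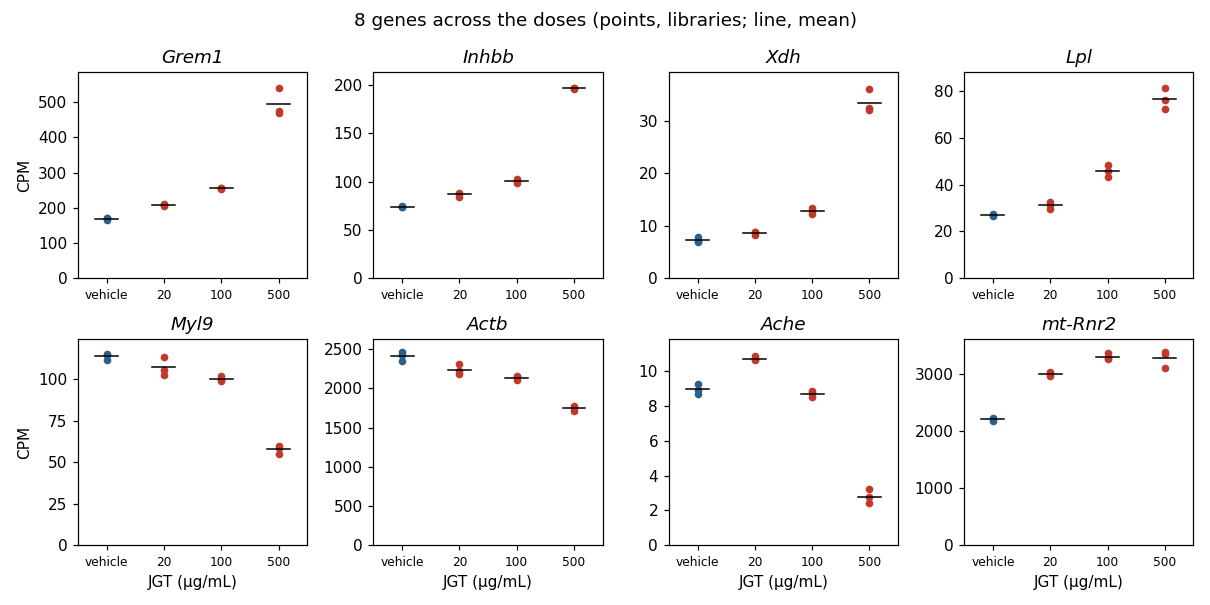
CPM per library (points) and group mean (line) for 8 genes in vehicle and at 20, 100 and 500 µg/mL JGT, each axis starting at 0. Grem1, Inhbb, Xdh and Lpl step up to 500 µg/mL, Ache and Myl9 step down there, and mt-Rnr2 is already at a mean of 3008 CPM at 20 µg/mL.

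A number of calls were lost when a library was left out, many of them with any of several libraries. In the actin list the rises of Des (log2 0.29) and Nes (0.20) ended without JGT 500 replicate 1 or 3 or vehicle replicate 2 or 3 (edgeR adjusted p 0.0748 to 0.196), and that of Mkl2 (0.14), a cofactor of SRF, without JGT 500 replicate 1 or vehicle replicate 2 or 3 (0.0762 to 0.159). Myh3, embryonic myosin (−0.18), lost its call without JGT 500 replicate 1 or 2 or vehicle replicate 1 or 2 (0.0571 to 0.169), and Lgals1, a galectin (−0.38), without JGT 500 replicate 3 (0.0577). The call of Cebpb, a stress-induced factor (0.73), and that of the metallothionein Mt2 (−0.81) ended without JGT 500 replicate 1 or 3 or vehicle replicate 2 or 3 (0.0506 to 0.0877). The muscle glucose transporter Slc2a4 (−0.62) lost its call without JGT 500 replicate 1 or 3 or vehicle replicate 1 (0.0638 to 0.126). The fat regulator Pparg (0.27) lost it without JGT 500 replicate 1 or vehicle replicate 1 or 2 (0.0659 to 0.0848), and the phosphodiesterase Pde1a (1.55) without JGT 500 replicate 2 or vehicle replicate 1 or 3 (0.100 to 0.127). Gbp3 (−1.03) and H2-Q4 (−0.46), the 2 interferon genes that fell, lost their calls without JGT 500 replicate 2 or vehicle replicate 1 (0.0566 to 0.0914). The leukotriene and prostaglandin genes Pla2g4a (−0.28) and Lta4h (−0.17) also lost their calls, Pla2g4a without vehicle replicate 2 (0.0722) and Lta4h without JGT 500 replicate 1 or vehicle replicate 2 (0.0810 to 0.0848). In a fit of the 6 libraries alone, 65 of 353 named genes lost their call. Of those given above, Des, Nes, Mkl2, Myh3, Mt2, Slc2a4, Pparg, H2-Q4 and Lta4h were among them (edgeR adjusted p 0.051 to 0.169). The calls of Dtx4 and Ppard ended too (edgeR adjusted p 0.0601 and 0.0542, in that order). Against non-treated myotubes in place of vehicle, 52 of 354 named genes lost their call and 2 changed direction. Among the 52 were Pkm (0.10), Cacna1s (−0.11), Srl (−0.11), Abcc9 (−0.37), Atp6v1c1 (0.07), Smo (−0.05), Phlda1 (0.25), Polr1b (−0.12), Grwd1 (−0.15), Mars2 (−0.15), Mrps10 (−0.14) and Cyc1 (−0.05) (edgeR adjusted p 0.0533 to 0.398). Without JGT 500 replicate 2, some smaller counts moved as well: 5 glycerolipid and 5 fatty acid oxidation genes fell, 7 integrated stress response, 5 metal and 5 polyamine genes rose, and 3 proton pump and 4 interferon genes fell.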

How the data were processed

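Per the labels' protocols, mRNA libraries of C2C12 myotubes were read from both ends, 100 bp each. The submitters' processing notes name the genome build GRCm38 and the programs RSEM 1.3.3, STAR 2.7.3a, Trim Galore 0.6.5 and FastQC 0.11.9. Annotation and strand option of counting: not given in the sources used here, so overlapping and antisense genes can share counts. The deposited table holds raw expected counts from the authors for each gene symbol; 9.34% were not whole within 0.005, and all were rounded. Columns were matched to samples by their labels, and none was left out.

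Genes were kept with filterByExpr, scaled by TMM (factors 0.988 to 1.02) and tested in 1 edgeR 4.0.16 quasi-likelihood fit of all 15 libraries with a mean per group and no covariate (R 4.3.3). The two-sided p was Benjamini-Hochberg adjusted over all 14461 genes. The fit had 10 residual degrees of freedom and a common dispersion of 0.00282 (coefficient of variation 5.31%). Within JGT 500 a pair of libraries differed by a mean chi-square per gene of 8.23 to 34.7 and within vehicle by 1.99 to 4.04, so no library was a repeat of another, and the pooled spread may be too small for JGT 500. CPM are TMM-scaled counts and compare samples, not genes, since gene length is not removed. The CPM sums of the marker lists and the cell cycle list were instead scaled by library totals alone.

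The text names, outside the set-aside lists, the 15 largest rises and falls among called genes with a mean of at least 5 CPM and no overlap, the 5 largest gains and losses in CPM, and genes with at most 3 counts in one group and at least 10 in each library of the other. For each family it names the 4 called members with the smallest p and members of directions with 5 or fewer, and other genes are marked as chosen after their values were seen. Some genes that these rules name are not reported here. The comparison, lists and rules were chosen with earlier results of these data known. Promoters are from RefSeq (GRCm38.p6) and gene positions from GENCODE M21. Alternatives were DESeq2 1.42.0, RLE factors, library totals, no filter, the 6 libraries alone, limma 3.58.1 voom with quality weights, a replicate block, each compared library left out in turn, and non-treated in place of vehicle.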

Additional observations from a re-analysis of the deposited data

How the results depend on the processing

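The 4815 genes called between JGT 500 and vehicle became 4374 with DESeq2, 4806 with RLE factors, 4914 with library totals, 4453 with no filter, 3346 in the 6 libraries alone, 6207 with voom weights and 4594 against non-treated. With each library left out in turn they ranged from 3704 (without JGT 500 replicate 1) to 6323 (without JGT 500 replicate 2). The 2853 genes called between JGT 500 and JGT 100 became 1313 in the 6 libraries alone and 4483 with voom weights, and 1880 to 4989 with a library left out. Deviations of samples with the same replicate number correlated by 0.0882, 0.119 and −0.0279 between JGT 500 and vehicle and by 0.0730, 0.106 and 0.116 between JGT 500 and JGT 100, where each JGT 500 library matched its own number best, a hint from the data; not every correlation passed 0.1, so the numbers were not taken as pairs. A replicate block gave 4757 and 2731 calls. Of 354 named genes, 255 kept direction and call under every alternative, and 2 changed direction against non-treated: Rps6 (log2 −0.04, edgeR adjusted p = 0.557) and Hnrnpm (−0.022, 0.812), both higher against vehicle; the cause was not tested. A family count moved by over 1.5 times in 263 of 1540 pairs of count and alternative. Depth limits genes of under 1 CPM.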
